A study of Tremella fuciformis and Annulohypoxylon stygium and Tremella fuciformis
Annulohypoxylon stygium with 5 samples.

Results

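The mycelium of the white jelly fungus Tremella fuciformis grown alone was set against the mycelium of Annulohypoxylon stygium grown alone, to see on which enzymes and proteins each fungus spent its transcripts. T. fuciformis is a basidiomycete, and A. stygium is the ascomycete with which it is cultivated. Both were labelled wild type, and the T. fuciformis culture had grown for 2 weeks but the A. stygium culture for 1 week, so species and culture age cannot be told apart. With 1 library per fungus there is no replicate spread to measure a difference by, and no test was made. The series also held 1 library of each fungus taken 1 week after interaction with the other, and 1 library of dual mycelia of both taken at the same time. These served here as repeats of the comparison in other cultures. The unit compared was the function, that is, all assembled transcripts (unigenes) whose SwissProt hit carried the same description with an e-value of at most 1e-20. Of 42507 unigenes in the series, 13433 had such a hit, and they carried 4446 descriptions. Their FPKM (fragments per kilobase of transcript and 1000000 fragments) were summed within each fungus after each library was scaled to a total of 1000000, and these values are called levels and given in ppm, parts of that total.

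Wood-inhabiting fungi live on polymers that they cannot take up whole. They secrete hydrolases that cut cellulose, hemicellulose, pectin or starch, import the sugars released, and feed them into glycolysis and respiration. Growth at the hyphal tip needs ribosomes, chitin and glucan synthases and enzymes that loosen and re-link the wall, and jelly fungi of the Tremellales in addition coat themselves with mannose- and glucuronic acid-rich polysaccharide made from nucleotide sugars. Filamentous ascomycetes plug damaged hyphae with Woronin bodies and often carry many gene clusters for polyketides, peptides and terpenes. T. fuciformis depends on its partner to degrade wood when it is cultivated.

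The libraries kept the fungi apart. Unigenes found at least 10 times higher in the libraries of 1 fungus than in those of the other held 99.2% of the T. fuciformis library and 98.9% of the A. stygium library. The best Nr protein belonged to a Tremellomycetes genus for 85.8% of the T. fuciformis unigenes and 0.481% of the A. stygium unigenes that had one. The most abundant A. stygium unigenes appeared in the T. fuciformis library at a median of 0.0426% of their own level, and those of T. fuciformis in the A. stygium library at 0.0691%. Levels of about 1 ppm or less beside a level above 1000 ppm in the other fungus are of the size of this background. Single A. stygium unigenes reached 4.78% of their own level and 76.2 ppm in the T. fuciformis library. Single T. fuciformis unigenes reached 0.475% and 18.3 ppm in the A. stygium library. A level above 1 ppm is therefore not by itself outside this background. Descriptions with an accepted hit covered 52.0% of the summed FPKM of T. fuciformis and 58.1% of that of A. stygium.

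A total of 4213 descriptions reached 10 ppm in at least 1 fungus. Of these, 852 were at least 4-fold higher in T. fuciformis (20.2%) and 1563 at least 4-fold higher in A. stygium (37.1%), while 1238 lay within 2-fold. Fold changes are ratios of level + 1, and the median log2 ratio of T. fuciformis over A. stygium was -0.33. Most of the large ratios came from descriptions found in 1 fungus alone: the A. stygium level was below 1 ppm for 622 of the 852, and the T. fuciformis level was below 1 ppm for 1385 of the 1563. Among the 2027 descriptions with at least 10 ppm in both fungi the median log2 ratio was 0.25, and the quartiles were -0.55 and 0.96. Here 153 (7.55%) were at least 4-fold higher in T. fuciformis and 105 (5.18%) in A. stygium. For the same 2027 descriptions the median size of the log2 ratio was 0.78 between the fungi, against 0.18 between the T. fuciformis libraries after interaction and alone and 0.19 between those of A. stygium. The ratio between the fungi was larger than both of these for 1642 of them, although the libraries of 1 fungus differ in condition and are not replicates.

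**Figure D1:**
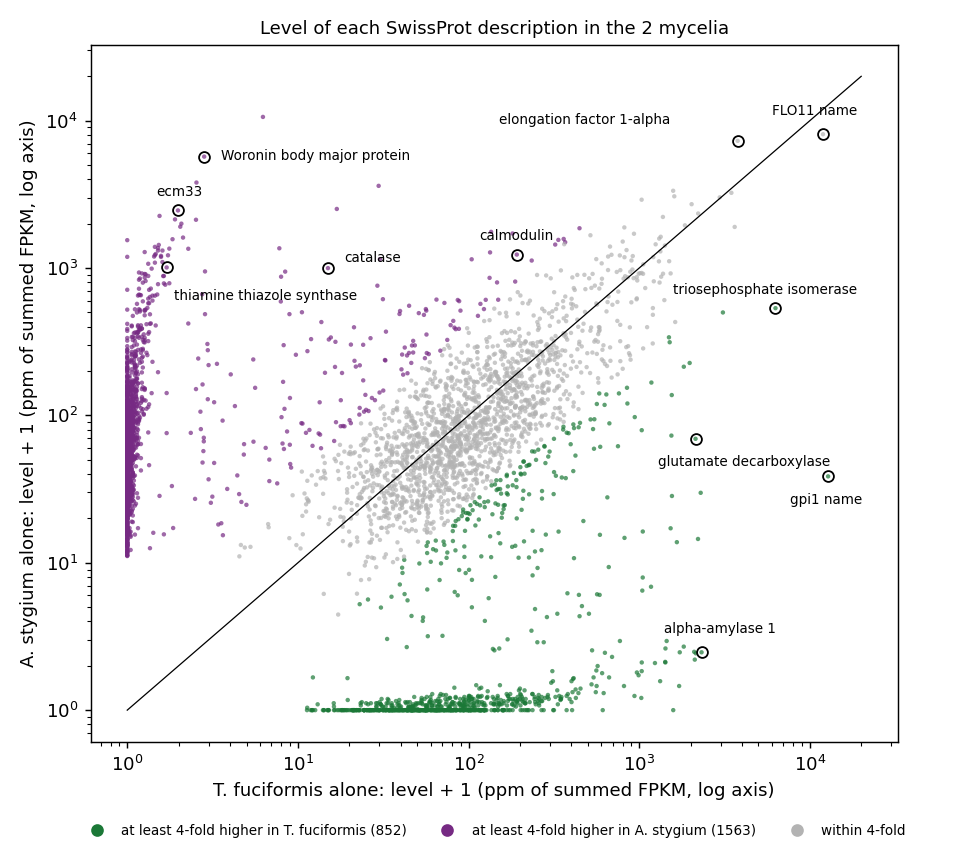
Level + 1 of the 4213 descriptions in T. fuciformis alone (x axis) and in A. stygium alone (y axis), ppm of summed FPKM on log axes, 1 point per description and the line marking equal levels. Points along the axes are descriptions found in 1 fungus, and 852 green and 1563 purple points lie at least 4-fold from equality.

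A description found in 1 fungus did not always mean that the function was missing in the other. SwissProt gives the same protein different names in different species, and the nearest named protein differed between the fungi. The large-subunit ribosomal protein L10a is an example. Under the name 60S ribosomal protein L1-B it had 1582 ppm in T. fuciformis and was listed at 0 in A. stygium, and under 60S ribosomal protein L10a it had 1.12 ppm in T. fuciformis and 1609 ppm in A. stygium. Under its KEGG orthology number, which groups genes by shared ancestry and function, it had 1583 ppm in T. fuciformis and 1609 ppm in A. stygium. Actin, the protein of the microfilaments, was split in the same way. Actin-2 had 2116 ppm in T. fuciformis and 1.20 ppm in A. stygium, Actin, gamma had 0.265 ppm in T. fuciformis and 1283 ppm in A. stygium, and the orthology number of both had 2023 ppm in T. fuciformis and 1426 ppm in A. stygium. The chaperone Heat shock protein 90 had 1425 ppm in T. fuciformis and 1.62 ppm in A. stygium by name and 1425 ppm in T. fuciformis and 1761 ppm in A. stygium by number.

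Regrouped by orthology number, 3280 functions were compared, and 427 (13%) were at least 4-fold higher in T. fuciformis and 716 (21.8%) in A. stygium. Of the 852 descriptions higher in T. fuciformis, 728 had an orthology number. By that number 204 remained at least 4-fold higher in T. fuciformis, 338 were less than 2-fold apart, and 20 turned to at least 4-fold higher in A. stygium. Of the 1563 descriptions higher in A. stygium, 1282 had a number. Of these, 486 remained at least 4-fold higher in A. stygium, 506 were less than 2-fold apart and 37 turned to at least 4-fold higher in T. fuciformis. The KOG number of eukaryotic protein families was added as another naming, and 125 descriptions were at least 4-fold higher in T. fuciformis and 229 in A. stygium under all 3 namings. These are called the concordant descriptions below. The regrouping was chosen after the levels had been seen.

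**Figure D2:**
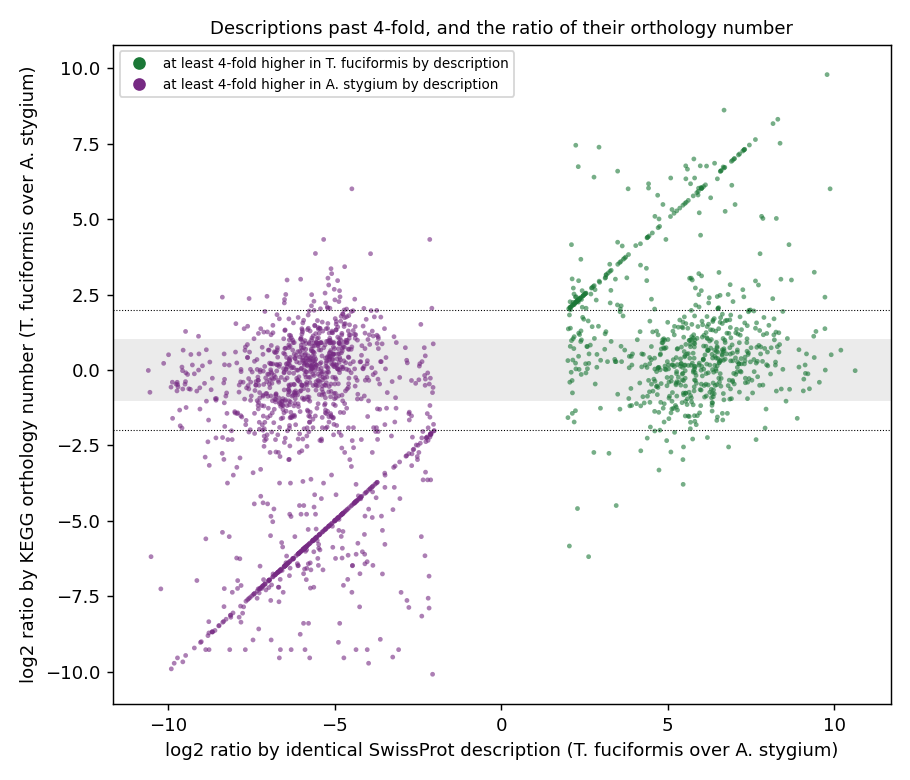
Log2 ratio of T. fuciformis over A. stygium by SwissProt description (x axis) and by KEGG orthology number of the same description (y axis), for descriptions at least 4-fold apart. The grey band marks 2-fold and the dotted lines 4-fold by number, and the band holds 338 of the 728 green and 506 of the 1282 purple points.

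Even a concordant ratio could hang on the e-value limit. The clathrin light chain, part of the coat of endocytic vesicles, had 0.265 ppm in T. fuciformis and 518 ppm in A. stygium by description. Yet the T. fuciformis unigene Unigene616 carried the same name at 364 ppm, with an e-value of 1.6e-17, just outside the limit. The 40S ribosomal protein S19, which every cell needs, was listed at 0 in T. fuciformis and had 521 ppm in A. stygium. For short or divergent proteins of this kind a level at or near 0 says only that no unigene with an accepted hit carried the name.

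The most abundant functions differed between the mycelia. In T. fuciformis the highest description was that of gpi1, in yeasts a subunit of the enzyme that starts the glycolipid anchors of surface proteins, with 12796 ppm in T. fuciformis and 37.6 ppm in A. stygium. Its T. fuciformis level came from 2 contigs of 1 assembly cluster, with e-values of 5.1e-32 and 1.2e-50, and after interaction it was 5889 ppm. The next was the Flocculation protein FLO11, named after a serine- and threonine-rich adhesin of yeast, with 11939.6 ppm in T. fuciformis and 8092 ppm in A. stygium. That name joined 98 T. fuciformis and 20 A. stygium unigenes, and with e-values of at most 1e-50 its log2 ratio was -9.59. Triosephosphate isomerase, a glycolytic enzyme, followed at 6289.8 ppm in T. fuciformis and 533 ppm in A. stygium, a log2 ratio of 3.56. Glyceraldehyde-3-phosphate dehydrogenase, the next enzyme of glycolysis, was close to even at 3469 ppm in T. fuciformis and 3239 ppm in A. stygium. Polyubiquitin, which tags proteins for the proteasome, was also close to even, at 2964 ppm in T. fuciformis and 3017 ppm in A. stygium.

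In A. stygium the highest description, Protein TAR1, is encoded opposite ribosomal RNA in yeast, and its A. stygium unigene had a ribosomal RNA hit in Nt. It had 5.24 ppm in T. fuciformis and 10604 ppm in A. stygium, while a T. fuciformis contig of the same name at 1294 ppm had an e-value of 3.1e-20, just outside the limit. The Woronin body major protein, which forms the crystalline core of the septal plug of filamentous ascomycetes, had 1.82 ppm in T. fuciformis and 5703 ppm in A. stygium. Elongation factor 1-alpha, which brings aminoacyl-tRNA to the ribosome, had 3776 ppm in T. fuciformis and 7299.9 ppm in A. stygium. The oxidoreductase cipB had 28.7 ppm in T. fuciformis and 3611 ppm in A. stygium, and Protein ecm33, a glycolipid-anchored wall protein, had 0.983 ppm in T. fuciformis and 2459.8 ppm in A. stygium. Histone H2A had 15.9 ppm in T. fuciformis and 2517 ppm in A. stygium, with further T. fuciformis unigenes of that name outside the e-value limit.

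The named transcripts were spread over about as many functions in both fungi. The 10 highest descriptions held 5.26% of the T. fuciformis library and 5.18% of the A. stygium library. Together 50 percent of the named level lay in 265 descriptions in T. fuciformis and in 292 in A. stygium. At 100 ppm or more stood 1229 descriptions in T. fuciformis and 1279 in A. stygium, and at 1 ppm or more 2894 and 3755.

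At the level of broad classes the mycelia were alike in these libraries. Of 25 KOG classes, 22 had shares within 2-fold. Translation took 9.10% of summed FPKM in T. fuciformis and 10.8% in A. stygium, protein folding and turnover 6.41% in T. fuciformis and 5.56% in A. stygium, and energy production 3.92% in T. fuciformis and 3.53% in A. stygium. The classes beyond 2-fold were small. Extracellular structures took 0.443% in T. fuciformis and 0.135% in A. stygium, defence 0.697% in T. fuciformis and 0.230% in A. stygium, and motility 0.0229% in T. fuciformis and 0.00612% in A. stygium. A single KOG number, von Willebrand factor and related coagulation proteins, had 8483 ppm in T. fuciformis and 1683 ppm in A. stygium. That is more than the whole class of extracellular structures, and unlike proteins such as Exoglucanase 1 and btgE carried it. How far this number set the class differences was not tested. Secondary metabolites took 0.783% in T. fuciformis and 1.27% in A. stygium.

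**Figure D3:**
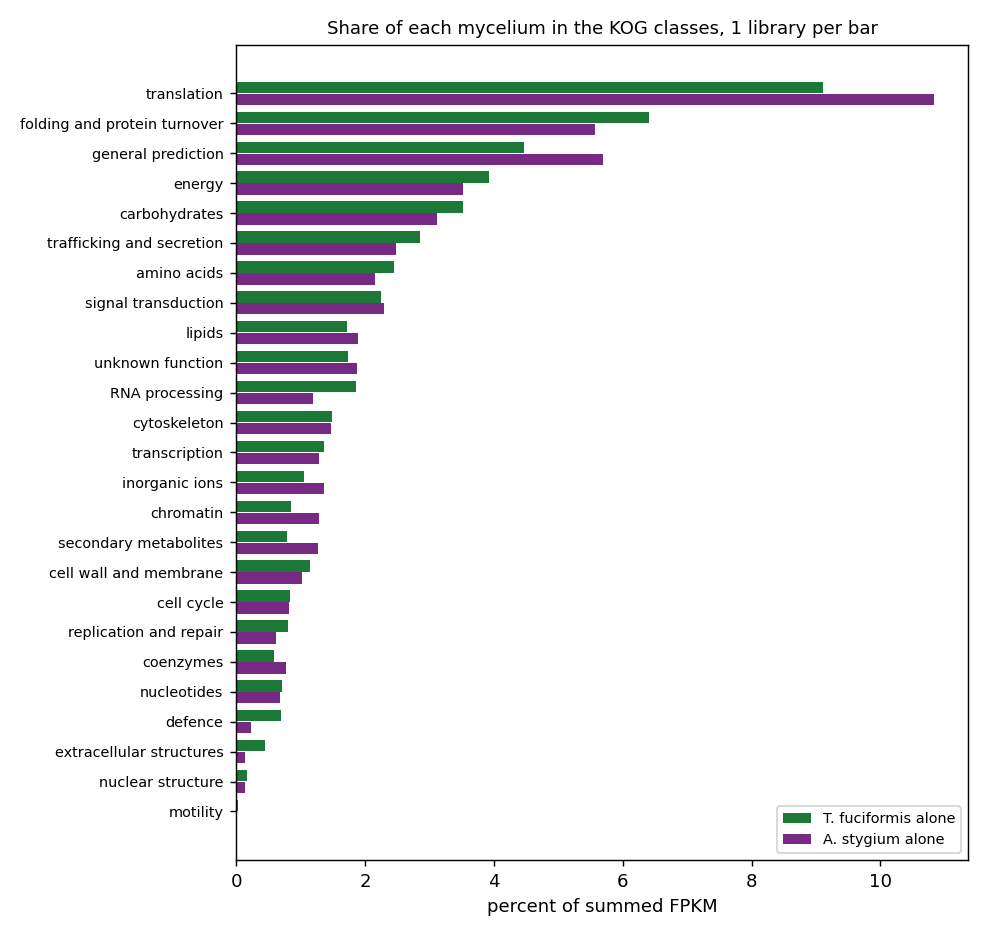
Share of summed FPKM in each of 25 KOG classes (percent, bars from 0) for T. fuciformis alone and A. stygium alone, 1 library per bar. Translation is the largest class in both, at 9.10% in T. fuciformis and 10.8% in A. stygium.

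The descriptions were then gathered into 33 lists by words in their names. In sum 25 lists were less than 2-fold apart. The laccases were the 1 list at least 4-fold higher in T. fuciformis, and 4 lists were so in A. stygium (polyketides, peptides and terpenes; hemicellulose and pectin breakdown; cellulose breakdown; hydrophobins). The hydrophobin list held only the Rodlet protein, from 1 A. stygium unigene at 11.1 ppm, close to the level filter. In the libraries after interaction 27 lists had the same direction.

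**Figure D4:**
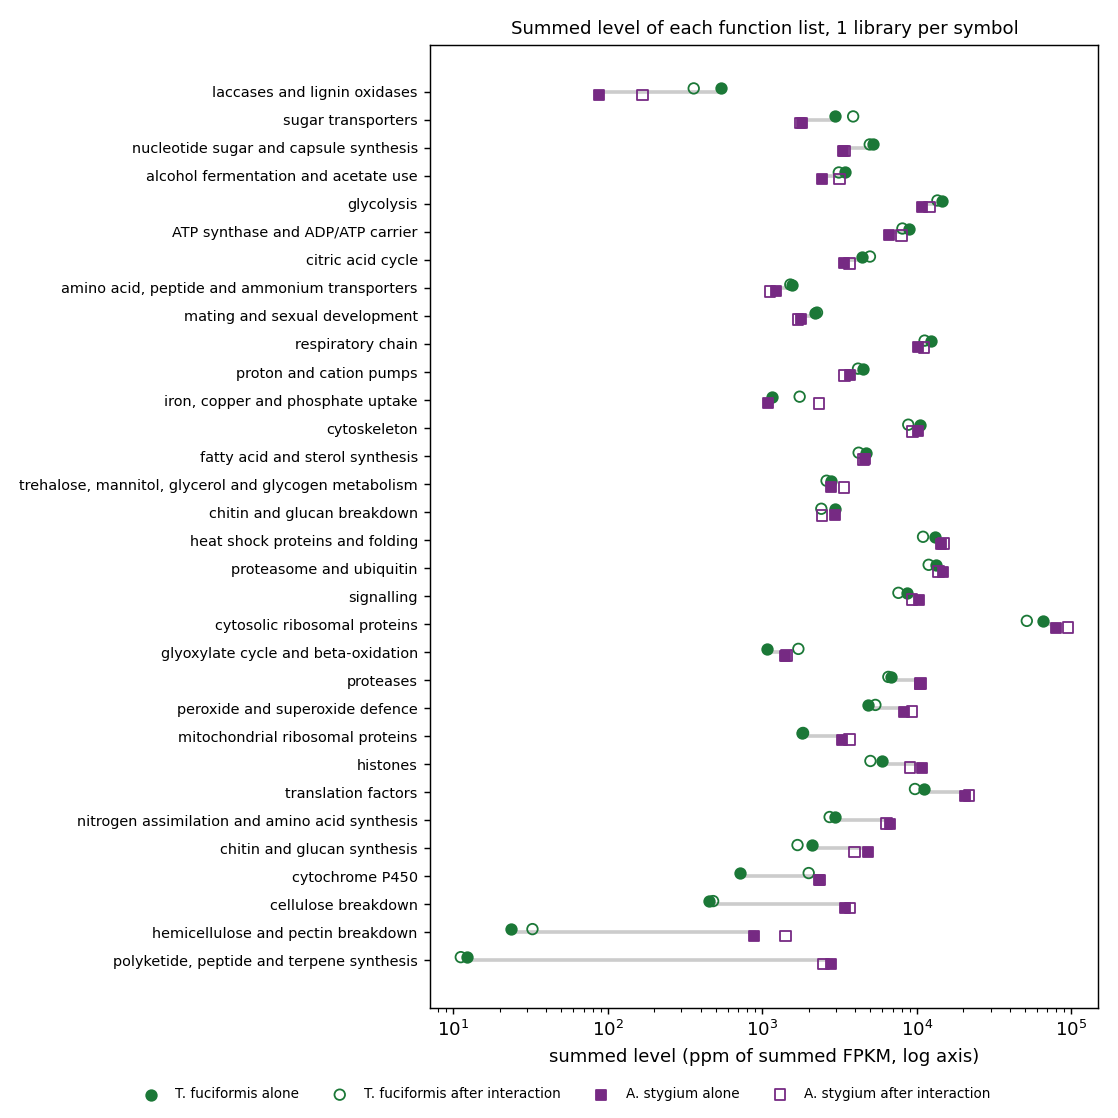
Summed level of each list of descriptions (ppm of summed FPKM, log axis) in T. fuciformis and A. stygium, alone (filled) and after interaction (open), ordered by the ratio alone, 1 library per symbol. Hydrophobins, listed at 0 in T. fuciformis, are not drawn, and the widest gaps are at the bottom, where polyketide, peptide and terpene synthesis had 12.3 ppm in T. fuciformis alone and 2788 ppm in A. stygium alone.

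Protein synthesis took the largest share of both. Cytosolic ribosomal proteins summed to 65916 ppm in T. fuciformis and 79427 ppm in A. stygium, or 6.59% of the T. fuciformis library and 7.94% of the A. stygium library. By description 24 of 103 members were at least 4-fold higher in T. fuciformis and 36 in A. stygium (20.2% and 37.1% over all descriptions), with a median log2 ratio of -0.40. By orthology number, which rejoins split names, the sums were 67026 ppm in T. fuciformis and 71978 ppm in A. stygium. Of 73 numbers, 66 reached 10 ppm in both fungi, and 52 of these lay within 2-fold, with a median log2 ratio of -0.10. Initiation and elongation factors were higher in A. stygium in sum, with 14681 ppm in T. fuciformis and 22288 ppm in A. stygium by number. Elongation factor 1-alpha was 3766 ppm in T. fuciformis and 7299.9 ppm in A. stygium of these. Numbers of the proteasome, the protease that degrades ubiquitin-tagged proteins, summed to 8287 ppm in T. fuciformis and 7107 ppm in A. stygium. Those of the chaperonin that folds actin and tubulin summed to 1791 ppm in T. fuciformis and 1484 ppm in A. stygium, and those of the vacuolar proton pump to 3530.3 ppm in T. fuciformis and 2720.2 ppm in A. stygium.

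Glycolysis was uneven from step to step while its sum was close, at 14515 ppm in T. fuciformis and 10733 ppm in A. stygium. Triosephosphate isomerase alone gave 6289.8 ppm of the sum in T. fuciformis and 533 ppm in A. stygium. The sum kept its direction in 10 of 12 settings. Hexokinase, which phosphorylates glucose, had 603 ppm in T. fuciformis and 239 ppm in A. stygium. Fructose-bisphosphate aldolase 1, which splits the sugar into trioses, had 1202 ppm in T. fuciformis and 481 ppm in A. stygium. The steps below triosephosphate isomerase and glyceraldehyde-3-phosphate dehydrogenase leaned the other way. Phosphoglycerate kinase had 446 ppm in T. fuciformis and 1862 ppm in A. stygium, enolase 1605 ppm in T. fuciformis and 3066 ppm in A. stygium, and pyruvate kinase, the last step, 187 ppm in T. fuciformis and 809 ppm in A. stygium. Phosphoglycerate kinase and pyruvate kinase were at least 4-fold higher in A. stygium. Of the 11 glycolytic descriptions that passed the level filter, 1 was at least 4-fold higher in T. fuciformis and 4 in A. stygium (20.2% and 37.1% over all descriptions), with a median log2 ratio of 0.10.

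After pyruvate, the fungi differed in decarboxylation. Pyruvate decarboxylase, the first enzyme of alcohol fermentation, summed under both of its names to 2099.6 ppm in T. fuciformis and 394 ppm in A. stygium. Alcohol dehydrogenase, the next step of fermentation, was not higher in T. fuciformis as a whole. Alcohol dehydrogenase 1 had 6.94 ppm in T. fuciformis and 592 ppm in A. stygium, Alcohol dehydrogenase had 283 ppm in T. fuciformis and 14.5 ppm in A. stygium, and their shared orthology number had 301 ppm in T. fuciformis and 688 ppm in A. stygium. The citric acid cycle summed to 4396 ppm in T. fuciformis and 3390.4 ppm in A. stygium, and the respiratory chain to 12304 ppm in T. fuciformis and 10109.7 ppm in A. stygium. Within the cycle Fumarate hydratase, mitochondrial, which makes malate, had 130.2 ppm in T. fuciformis and 4.75 ppm in A. stygium, whereas Malate dehydrogenase, mitochondrial, had 601 ppm in T. fuciformis and 781 ppm in A. stygium. The mitochondrial porin, the channel of the outer membrane, was concordant, with 1493 ppm in T. fuciformis and 338 ppm in A. stygium. ATP-citrate synthase, which supplies cytosolic acetyl-CoA for fatty acids, was higher in A. stygium, with 235 ppm in T. fuciformis and 1168 ppm in A. stygium by orthology number.

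The enzymes named here of the path through 4-aminobutyrate were higher in T. fuciformis, while other enzymes of glutamate went in both directions. Glutamate decarboxylase, which makes 4-aminobutyrate from glutamate, had 2138 ppm in T. fuciformis and 68.4 ppm in A. stygium, a log2 ratio of 4.95. After interaction the levels were 2284 ppm in T. fuciformis and 91.8 ppm in A. stygium. Succinate-semialdehyde dehydrogenase [NADP(+)], which returns its carbon to the citric acid cycle, had 759.8 ppm in T. fuciformis and 140.0 ppm in A. stygium. Between them, 4-aminobutyrate aminotransferase had 208 ppm in T. fuciformis and 90.5 ppm in A. stygium, a log2 ratio of 1.19. Another orthology number with that enzyme's name had 2597 ppm in T. fuciformis and 44.2 ppm in A. stygium, and nearly all of its T. fuciformis level lay in CL1789.Contig3 and CL1789.Contig2, whose SwissProt hit was FLO11. The dehydrogenase and the aminotransferase were chosen after their values were seen, as were the other genes below that are not among the most abundant or the most unequal of all descriptions or of a list.

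Storage sugars also split. Glycogen phosphorylase, which mobilises glycogen, was close to even at 753 ppm in T. fuciformis and 691 ppm in A. stygium. Trehalose phosphorylase, which cleaves the disaccharide trehalose, had 750.1 ppm in T. fuciformis and 60.8 ppm in A. stygium. The orthology number attached to that description had 271 ppm in T. fuciformis and 61.2 ppm in A. stygium. It is named SET and MYND domain-containing protein, so it does not check the level of this enzyme. The glycogen primer Glycogenin-1 was concordant in the other direction, with 0.328 ppm in T. fuciformis and 576 ppm in A. stygium. By orthology number and by KOG number the gap was smaller, at 63.5 ppm in T. fuciformis and 576 ppm in A. stygium. Mannitol-1-phosphate 5-dehydrogenase, which makes the sugar alcohol mannitol, had 0.172 ppm in T. fuciformis and 384 ppm in A. stygium. Another mannitol enzyme, Probable NADP-dependent mannitol dehydrogenase, was close to even, at 37.4 ppm in T. fuciformis and 47.4 ppm in A. stygium. The list of trehalose, mannitol, glycerol and glycogen enzymes was even in sum, at 2788 ppm in T. fuciformis and 2768 ppm in A. stygium.

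Enzymes against plant polymers separated by polymer. Starch-degrading alpha-amylases, 3 descriptions, summed to 2498 ppm in T. fuciformis and 37.4 ppm in A. stygium. Most of this was Alpha-amylase 1, with 2319 ppm in T. fuciformis and 1.47 ppm in A. stygium, and by orthology number the enzyme had 2598 ppm in T. fuciformis and 39.5 ppm in A. stygium. After interaction Alpha-amylase 1 had 2477 ppm in T. fuciformis and 1.78 ppm in A. stygium. Probable D-xylulose reductase A, of the pentose pathway, was also higher in T. fuciformis, with 1975 ppm in T. fuciformis and 226 ppm in A. stygium.

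By description, cellulose, hemicellulose and pectin enzymes were mostly A. stygium transcripts. The hemicellulose and pectin list summed to 23.5 ppm in T. fuciformis and 888 ppm in A. stygium, and 1 of 18 members were at least 4-fold higher in T. fuciformis and 17 in A. stygium (20.2% and 37.1% over all descriptions), with a median log2 ratio of -5.04. Probable exo-1,4-beta-xylosidase bxlB, which releases xylose, was listed at 0 in T. fuciformis and had 125 ppm in A. stygium. Probable alpha-L-arabinofuranosidase B, which removes arabinose side chains, had 0.0780 ppm in T. fuciformis and 111 ppm in A. stygium. Pectinesterase was listed at 0 in T. fuciformis and had 62.6 ppm in A. stygium. Feruloyl esterases, which free phenolic acids from hemicellulose, summed to 0.187 ppm in T. fuciformis and 140.4 ppm in A. stygium, and their orthology number had a smaller gap, with 17.0 ppm in T. fuciformis and 242 ppm in A. stygium. Beta-galactosidases summed to 0.203 ppm in T. fuciformis and 151 ppm in A. stygium. The exception among the 18 was Alpha-L-arabinofuranosidase C, at 14.1 ppm in T. fuciformis and listed at 0 in A. stygium, although its orthology number had 16.1 ppm in T. fuciformis and 37.7 ppm in A. stygium. No single description of the list was above 125 ppm in A. stygium.

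The cellulose list summed to 452 ppm in T. fuciformis and 3440.5 ppm in A. stygium, and 4 of 26 members were at least 4-fold higher in T. fuciformis and 17 in A. stygium (20.2% and 37.1% over all descriptions), with a median log2 ratio of -4.08. Endoglucanases and cellobiohydrolases, which cut the cellulose chain, summed to 69.3 ppm in T. fuciformis and 711 ppm in A. stygium, with 3 endo-beta-1,4-glucanases counted here that the list's search words did not take. Their orthology numbers did not all show this gap. The number of Endoglucanase EG-1 had 0.265 ppm in T. fuciformis and 518 ppm in A. stygium, but that of Endoglucanase EG-II and Endoglucanase-7 was even, at 323 ppm in T. fuciformis and 316 ppm in A. stygium. Endoglucanase EG-1 had 0.265 ppm in T. fuciformis and 511 ppm in A. stygium, while Endoglucanase 1 had 68.6 ppm in T. fuciformis and 19.1 ppm in A. stygium. The latter made up most of the T. fuciformis sum of these enzymes. Its orthology number is named isoleucyl-tRNA synthetase and its KOG number UDP-glucuronosyl and UDP-glucosyl transferase, so the other namings do not call it a cellulase. Beta-glucosidases, which split cellobiose into glucose, were present in both, at 382 ppm in T. fuciformis and 869 ppm in A. stygium in sum. This sum includes Alpha/beta-glucosidase agdC, at 23.4 ppm in T. fuciformis and listed at 0 in A. stygium. It also includes Probable alpha/beta-glucosidase agdC, at 0.0468 ppm in T. fuciformis and 25.1 ppm in A. stygium. The orthology number of both is named alpha-glucosidase, and the former is among the 4 list members higher in T. fuciformis. Probable beta-glucosidase A had 126 ppm in T. fuciformis and 328 ppm in A. stygium, and Probable beta-glucosidase I had 78.5 ppm in T. fuciformis and 55.7 ppm in A. stygium. Cellobiose dehydrogenase, which oxidises cellobiose, was listed at 0 in T. fuciformis and had 56.1 ppm in A. stygium. The list also held btgE, sun1 and adg3, beta-glucosidases by name that belong to families acting on the fungal wall, at 1.15 ppm in T. fuciformis and 1886 ppm in A. stygium. Without them the list had 451 ppm in T. fuciformis and 1554 ppm in A. stygium, a 3.44-fold difference.

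Chitin and glucan synthesis summed to 2109 ppm in T. fuciformis and 4805 ppm in A. stygium, and 5 of 20 members were at least 4-fold higher in T. fuciformis and 7 in A. stygium (20.2% and 37.1% over all descriptions), with a median log2 ratio of -0.77. The chitin synthases were close in sum and not by member, and several other wall enzymes differed. Chitin synthases, which make the chitin of the wall, summed to 918 ppm in T. fuciformis and 1233 ppm in A. stygium. Of the 8 names, 2 were at least 4-fold higher in T. fuciformis and 1 in A. stygium. The beta-glucan synthase 1,3-beta-glucan synthase component FKS1 had 172 ppm in T. fuciformis and 183 ppm in A. stygium. The 1,3-beta-glucanosyltransferases, which elongate and branch beta-glucan outside the cell, summed to 179 ppm in T. fuciformis and 1589.7 ppm in A. stygium, led by 1,3-beta-glucanosyltransferase gel1 at 0.187 ppm in T. fuciformis and 849 ppm in A. stygium. Mannan endo-1,6-alpha-mannosidase DCW1, which in yeast helps to cross-link anchored proteins to the wall, had 0.515 ppm in T. fuciformis and 1366 ppm in A. stygium. Secreted beta-glucosidase sun1, of a family that acts in septation, had 0.515 ppm in T. fuciformis and 776 ppm in A. stygium. In T. fuciformis Cell wall alpha-1,3-glucan synthase mok13, which makes the wall polymer alpha-glucan, had 152 ppm in T. fuciformis and 0.0954 ppm in A. stygium, and Beta-glucan synthesis-associated protein KRE6 had 267 ppm in T. fuciformis and 0.229 ppm in A. stygium.

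By description, wall-degrading and wall-modifying enzymes were even in sum and uneven by member. Chitin and glucan breakdown summed to 2950.2 ppm in T. fuciformis and 2974 ppm in A. stygium, with 10 of 16 descriptions at least 4-fold higher in T. fuciformis and 5 in A. stygium (20.2% and 37.1% over all descriptions). Chitin deacetylases, which turn chitin into chitosan, summed to 571 ppm in T. fuciformis and 4.08 ppm in A. stygium. Chitinases summed to 211 ppm in T. fuciformis and 211 ppm in A. stygium by description. The other namings leaned to A. stygium. Their orthology number had 286 ppm in T. fuciformis and 1077 ppm in A. stygium. The KOG number of Endochitinase 1 had 93.9 ppm in T. fuciformis and 170 ppm in A. stygium. That of Chitinase 3 had 528 ppm in T. fuciformis and 3347 ppm in A. stygium. Among glucanases, Probable glucan 1,3-beta-glucosidase A had 991 ppm in T. fuciformis and 0.725 ppm in A. stygium, and Probable glucan endo-1,3-beta-glucosidase eglC had 0.546 ppm in T. fuciformis and 2257 ppm in A. stygium. By orthology number the eglC ratio kept its direction, at 30.2 ppm in T. fuciformis and 2273 ppm in A. stygium. Glucosidase A shares its number with other 1,3-beta-glucosidases and with btgE, which had 882 ppm in A. stygium. That number was within 2-fold, at 1950.1 ppm in T. fuciformis and 1349 ppm in A. stygium, and does not measure glucosidase A alone. Joined under 1 sum, the 1,3-beta-glucosidases had 1978 ppm in T. fuciformis and 2723 ppm in A. stygium.

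Nucleotide sugar and capsule enzymes were somewhat higher in T. fuciformis in sum, at 5180.0 ppm in T. fuciformis and 3321 ppm in A. stygium, and 10 of 35 descriptions were at least 4-fold higher in T. fuciformis and 10 in A. stygium (20.2% and 37.1% over all descriptions). Phosphoglucomutase, which makes glucose 1-phosphate, had 1625 ppm in T. fuciformis and 429 ppm in A. stygium, and Probable UTP--glucose-1-phosphate uridylyltransferase, which turns it into UDP-glucose, had 1112 ppm in T. fuciformis and 396 ppm in A. stygium. The higher sum in T. fuciformis rested on these enzymes. Without them the sums of the list were close, and the counts past 4-fold were equal. GDP-mannose transporters, which carry activated mannose into the Golgi, summed to 694 ppm in T. fuciformis and 87.0 ppm in A. stygium, and GDP-mannose transporter 2 alone had 556 ppm in T. fuciformis and 0.324 ppm in A. stygium. Alpha-1,3-mannosyltransferase CMT1, known from the capsule-forming yeast Cryptococcus, had 199.9 ppm in T. fuciformis and 0.286 ppm in A. stygium. In the other direction Mannose-6-phosphate isomerase, which links mannose to glycolysis, had 54.5 ppm in T. fuciformis and 244 ppm in A. stygium.

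By description, enzymes named after secondary metabolism were far higher in A. stygium, while the KOG class of secondary metabolites was within 2-fold. Polyketide, peptide and terpene enzymes summed to 12.3 ppm in T. fuciformis and 2788 ppm in A. stygium, and 0 of 18 members were at least 4-fold higher in T. fuciformis and 17 in A. stygium (20.2% and 37.1% over all descriptions), with a median log2 ratio of -6.61. They came from 3 T. fuciformis and 181 A. stygium unigenes. Lovastatin nonaketide synthase, a name for highly reducing polyketide synthases, had 0.0780 ppm in T. fuciformis and 473 ppm in A. stygium. Nonribosomal peptide synthetase 14 had 0.0936 ppm in T. fuciformis and 236 ppm in A. stygium, and the 7 synthetases of that name series summed to 0.234 ppm in T. fuciformis and 343 ppm in A. stygium. Such names give the nearest characterised enzyme and not the product made. The KOG number of Nonribosomal peptide synthetase 4, which also covers alpha-aminoadipate reductase, had 72.2 ppm in T. fuciformis and 218 ppm in A. stygium. That of Nonribosomal peptide synthetase 14 and Lovastatin nonaketide synthase had 0.296 ppm in T. fuciformis and 931 ppm in A. stygium. The list also held P450 names, such as the monooxygenase stcS at 0.187 ppm in T. fuciformis and 518 ppm in A. stygium. Of the enzymes of the naphthalene type of melanin, Scytalone dehydratase was listed at 0 in T. fuciformis and had 19.9 ppm in A. stygium, and Tetrahydroxynaphthalene reductase had 0.406 ppm in T. fuciformis and 230.1 ppm in A. stygium. Its orthology number, which covers a wide family of reductases, had 627 ppm in T. fuciformis and 819 ppm in A. stygium. Trihydroxynaphthalene reductase, at 10.5 ppm in T. fuciformis and 25.6 ppm in A. stygium, was the only member above 10 ppm in T. fuciformis.

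Oxidases differed in both directions. Cytochrome P450 descriptions summed to 717 ppm in T. fuciformis and 2333 ppm in A. stygium, and 2 of 14 members were at least 4-fold higher in T. fuciformis and 9 in A. stygium (20.2% and 37.1% over all descriptions), with a median log2 ratio of -5.77. The most abundant in T. fuciformis, Cytochrome P450-DIT2, had 309 ppm in T. fuciformis and 0.839 ppm in A. stygium, and after interaction it had 1556 ppm in T. fuciformis and 0.642 ppm in A. stygium. Its orthology number had the opposite direction, with 395 ppm in T. fuciformis and 765 ppm in A. stygium. That number also covers other P450 names, such as Cytochrome P450 52A13 at 406 ppm in A. stygium, and does not measure Cytochrome P450-DIT2 alone. After interaction the P450 sum was 1998 ppm in T. fuciformis and 2373 ppm in A. stygium. Laccases, multicopper oxidases of phenols that act in lignin turnover and pigment formation, were higher in T. fuciformis. The list of 5 descriptions summed to 537 ppm in T. fuciformis and 88.1 ppm in A. stygium. Laccase-2 had 422 ppm in T. fuciformis and 52.4 ppm in A. stygium, while Tyrosinase, another phenol oxidase, was listed at 0 in T. fuciformis and had 28.6 ppm in A. stygium, and 0.312 ppm in T. fuciformis and 682 ppm in A. stygium by orthology number. The orthology number shared by Laccase and Laccase-2 is named iron transport multicopper oxidase and also covers FET3 and fio1. It had 582 ppm in T. fuciformis and 466 ppm in A. stygium, within 2-fold, but does not measure laccases alone. After interaction the laccase list was below 4-fold, at 360.2 ppm in T. fuciformis and 168 ppm in A. stygium.

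Peroxide defence was higher in A. stygium at 2 abundant enzymes. Catalase, which splits hydrogen peroxide, had 14.01 ppm in T. fuciformis and 998 ppm in A. stygium, and Putative peroxiredoxin pmp20, of the peroxisome, had 133 ppm in T. fuciformis and 1276 ppm in A. stygium. Both were concordant. Superoxide dismutase [Cu-Zn] was even, at 565 ppm in T. fuciformis and 564 ppm in A. stygium, and Superoxide dismutase [Mn], mitochondrial, had 1376 ppm in T. fuciformis and 2221 ppm in A. stygium. The list summed to 4853 ppm in T. fuciformis and 8319 ppm in A. stygium, and 9 of 31 members were at least 4-fold higher in T. fuciformis and 14 in A. stygium (20.2% and 37.1% over all descriptions), with a median log2 ratio of -0.69.

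Nitrogen and one-carbon enzymes leaned to A. stygium. Nitrogen assimilation and amino acid synthesis summed to 2958 ppm in T. fuciformis and 6719 ppm in A. stygium, and 0 of 17 members were at least 4-fold higher in T. fuciformis and 6 in A. stygium (20.2% and 37.1% over all descriptions), with a median log2 ratio of -1.01. Glutamine synthetase, which fixes ammonium, had 817 ppm in T. fuciformis and 1886 ppm in A. stygium. In the methyl cycle Adenosylhomocysteinase had 233 ppm in T. fuciformis and 1124 ppm in A. stygium, S-adenosylmethionine synthase 132 ppm in T. fuciformis and 857 ppm in A. stygium, and Serine hydroxymethyltransferase, cytosolic, which feeds one-carbon units, 88.7 ppm in T. fuciformis and 513 ppm in A. stygium. By orthology number S-adenosylmethionine synthase was below 4-fold, at 298 ppm in T. fuciformis and 857 ppm in A. stygium. The path from nitrate was found in A. stygium, where Nitrate reductase [NADPH] had 0.0780 ppm in T. fuciformis and 92.7 ppm in A. stygium. Nitrite reductase [NAD(P)H] was listed at 0 in T. fuciformis and had 19.9 ppm in A. stygium, and the Nitrate transporter was listed at 0 in T. fuciformis and had 14.9 ppm in A. stygium. Thiamine thiazole synthase, which makes the thiazole ring of vitamin B1, was concordant, with 0.702 ppm in T. fuciformis and 1008 ppm in A. stygium, and after interaction it had 1.47 ppm in T. fuciformis and 2733 ppm in A. stygium. Calmodulin, the calcium sensor, was concordant too, with 191 ppm in T. fuciformis and 1233 ppm in A. stygium.

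Sugar transporters in sum and pheromone receptors were higher in T. fuciformis. Sugar transporters summed to 2951 ppm in T. fuciformis and 1821 ppm in A. stygium, and 6 of 23 members were at least 4-fold higher in T. fuciformis and 8 in A. stygium (20.2% and 37.1% over all descriptions), with a median log2 ratio of -0.23, so that the sum and the median differ in sign. Sugar transporter STL1, named after a yeast glycerol importer, had 889 ppm in T. fuciformis and 238 ppm in A. stygium, and Quinate permease had 542 ppm in T. fuciformis and 58.4 ppm in A. stygium, whereas the High-affinity glucose transporter had 14.6 ppm in T. fuciformis and 337 ppm in A. stygium. Joined under 1 orthology number these transporters had 1583 ppm in T. fuciformis and 1308 ppm in A. stygium. Pheromone receptors, through which basidiomycetes sense a mate, summed to 695 ppm in T. fuciformis and 8.22 ppm in A. stygium. The Pheromone B beta 1 receptor had 423 ppm in T. fuciformis and 0.381 ppm in A. stygium, and Pheromone receptor 1 had 267 ppm in T. fuciformis and 0.153 ppm in A. stygium. The wider list of mating and sexual development summed to 2183 ppm in T. fuciformis and 1794 ppm in A. stygium, and 9 of 26 members were at least 4-fold higher in T. fuciformis and 8 in A. stygium (20.2% and 37.1% over all descriptions), with a median log2 ratio of 0.44.

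**Figure D5:**
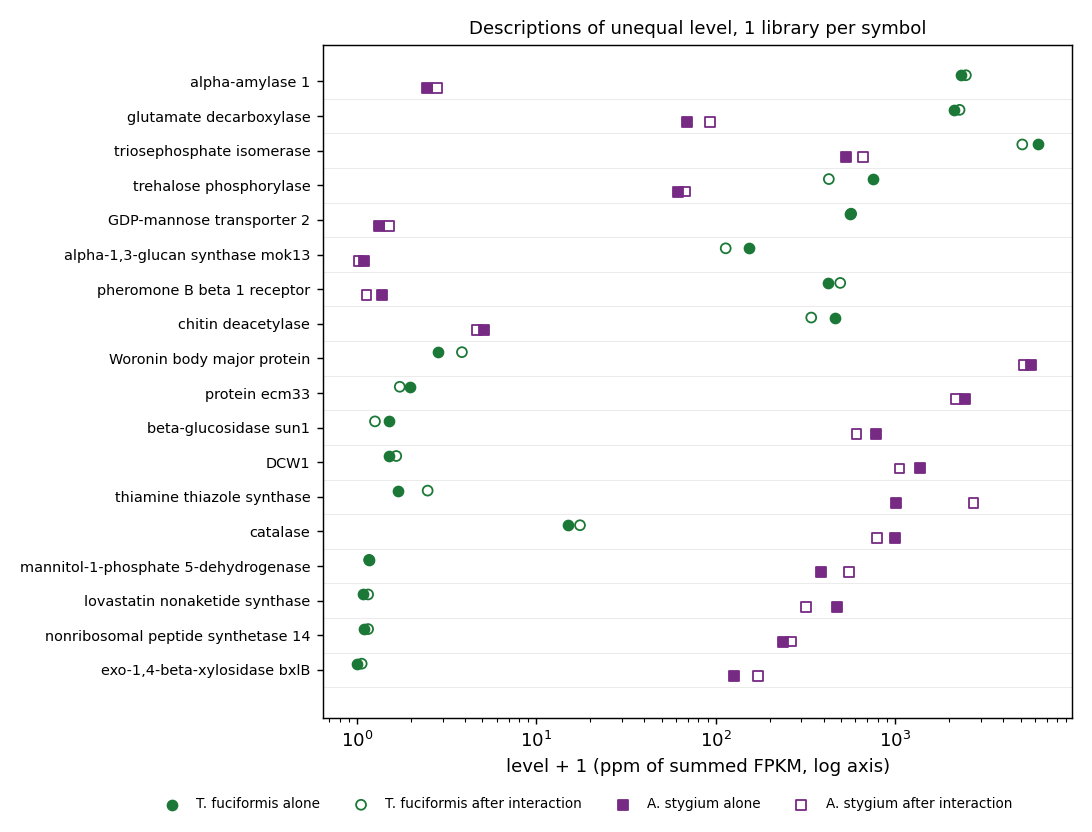
Level + 1 (ppm of summed FPKM, log axis) of 18 descriptions in T. fuciformis and A. stygium, alone (filled) and after interaction (open), 1 library per symbol. For each description the green symbols lie apart from the purple ones, as for alpha-amylase 1 at 2319 and 2477 ppm in T. fuciformis and 1.47 and 1.78 ppm in A. stygium.

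The contrast between the fungi was then taken in the other libraries. Between the libraries after interaction, 822 of the 852 descriptions were again at least 4-fold higher in T. fuciformis and 1529 of the 1563 in A. stygium, and 0 were 4-fold apart in the opposite direction. In the dual library, where each fungus was read from its own unigenes and scaled to the same total, the counts were 809 for T. fuciformis and 1521 for A. stygium. Most of these were fixed by the assignment, because 671 of the 852 and 1411 of the 1563 had no unigene assigned to the other fungus, which then stands at 0. Among descriptions with assigned unigenes of both, 138 of 181 were again at least 4-fold higher in T. fuciformis and 112 of 152 in A. stygium in the dual library, and 152 of the 181 and 118 of the 152 after interaction. Of the concordant descriptions, 117 of 125 higher in T. fuciformis and 219 of 229 higher in A. stygium were past 4-fold after interaction. Those libraries come from the same species and were measured against the same assembly and annotation, so they repeat the cultures and not the naming.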

How the data were processed

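The deposited table holds unigenes with the authors' FPKM for each of 5 libraries and hits in Nr, Nt, SwissProt, KEGG and KOG, per the file headers. Trizol extraction and standard Illumina library protocols are named in the labels. No assembler, aligner or counting program is named in these sources. Read counts, unigene lengths and sequences were not used here, so the depth behind a value is unknown and no sequence is shown. Of the columns with values per library, 0 were left unused.

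From there each FPKM column was scaled to 1000000 (levels in ppm) and summed by identical SwissProt description (e-value at most 1e-20). The ratio was log2((T. fuciformis + 1)/(A. stygium + 1)) over descriptions at 10 ppm or more in at least 1 fungus, and 4-fold was the limit for a call. The pseudocount of 1 understates the ratio of low values. With 1 library per fungus, calls describe these libraries and carry no p-value. A unigene was assigned to a fungus at 1 FPKM or more and at least 10 times the level of the other. Python 3.11.15, pandas 2.3.3, numpy 2.4.6 and matplotlib 3.10.9 were used, and the calling step was tested on simulated data.

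The comparison and the lists were chosen with earlier results of these data known, and the lists were trimmed of wrong matches after values were seen. Genes were named by rule: the 15 highest in each fungus, the 10 largest and 10 smallest ratios at 100 ppm or more in 1 fungus and again at 1 ppm or more in both, and from each list the 2 most abundant and the most unequal members. Some were left out for length, and other genes, smaller groups of descriptions and the regrouping by KEGG and KOG number were chosen after values were seen. Alternatives covered the e-value, summing, scaling, pseudocount, filter, naming, libraries and fold. Levels in separate species also reflect how each gene was assembled and named.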

Additional observations from a re-analysis of the deposited data

Results flagged for a closer look

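A large part of each library lay outside the named functions. Unigenes without an accepted SwissProt hit held 48.0% of the summed FPKM of T. fuciformis and 41.9% of that of A. stygium, and they took no part in the comparison. Some were more abundant than nearly every named function.

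In T. fuciformis the 3 highest were CL4679.Contig2 at 16258 ppm, CL7690.Contig2 at 10601 ppm and CL3181.Contig2 at 6038 ppm. The first had a SwissProt hit to the Cell wall protein DAN4 with an e-value of 2.7e-12, and the others had none. In A. stygium the highest was Unigene10417 at 24739 ppm, with 9.92 ppm in T. fuciformis. Its SwissProt hit was Trihydrophobin, a secreted protein that coats aerial surfaces with a water-repellent layer, with an e-value of 1.8e-19, just outside the limit, so that the most abundant transcript of A. stygium is missing from the hydrophobin list. T. fuciformis unigenes of that name were missing from it too, such as CL5492.Contig2 at 39.2 ppm with an e-value of 1e-12. Unigene5905, named after the very short 60S ribosomal protein L41, had 11338 ppm with an e-value of 7.6e-07. Unigene97 had 8995 ppm and a weak hit to FLO11. These unigenes were listed because the signal lay outside the values compared.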

How the results depend on the processing

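The 852 descriptions higher in T. fuciformis and the 1563 higher in A. stygium became 386 and 532 with at least 100 ppm required, and 230 and 178 with at least 1 ppm required in both fungi, where T. fuciformis had the larger count. With e-values of at most 1e-50 the T. fuciformis count was 529. By KEGG orthology number, added after seeing the data, the counts were 427 and 716, and by KOG number, also added then, 347 and 565. Under the other settings run both counts stayed within 1.5 times, from 652 to 1201 in T. fuciformis and from 1222 to 1774 in A. stygium. Directions turned for 9 values of named descriptions past 4-fold. With names merged, the log2 ratio was -0.00336 for the 40S ribosomal protein S4-A, -0.41 for the 60S ribosomal protein L13, -0.13 for the 60S ribosomal protein L31-B, -1.87 for Elongation factor 1-gamma, 1.02 for Hexokinase-2 and -0.077 for Monothiol glutaredoxin-4, since merging joins the names that each fungus used. With e-values of at most 1e-10 it was -1.37 for the V-type proton ATPase subunit e, and at 1e-50 it was -4.90 for gpi1, whose T. fuciformis contigs then drop out. In the dual library the Copper transport protein ctr4 had -1.38, and the cause was not tested. A further 5 values below 4-fold turned and passed it: -9.59 for FLO11, -8.95 for Cytochrome c oxidase subunit 4, mitochondrial and -8.15 for ATP synthase subunit 4, mitochondrial at 1e-50, 2.33 for the Cell wall protein DAN4 at 1e-10, and 2.71 for Trihydroxynaphthalene reductase in the dual library. Of the 33 list sums, 5 crossed 4-fold or moved by 1 or more on the log2 scale below it. The log2 ratio of the laccases fell below 4-fold at 1.92 with 1 contig per cluster, 1.09 after interaction and 1.96 in the dual library. That of the hydrophobins ranged from -7.98 at 1e-10, which admits Unigene10417, to -1.08 with a pseudocount of 10, and this list has no member at 1e-50. Polyketide, peptide and terpene synthesis stayed past 4-fold but ranged from -9.87 at 1e-50 to -3.75 in the dual library. Mitochondrial ribosomal proteins had -2.59 at 1e-50, and iron, copper and phosphate uptake turned to -2.76 in the dual library. Cytochrome P450 had -0.47 at 1e-10, -0.25 after interaction and -0.49 in the dual library. Merging names changes no list sum. Of all other values under these settings, 2056 of named descriptions and 386 of lists kept their direction and side of 4-fold, or moved by less than 1 on the log2 scale; 14 and 29 of these changed sign. Beside the 9 that turned, 26 values of named descriptions fell below 4-fold, 25 passed it and 12 moved by 1 or more below it. Weighting by unigene length was not run, since the table gives no lengths. No paired analysis was possible because each fungus had 1 library and the labels give no replicate numbers. Depth is unknown, so low levels carry no error.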

Other observations

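Transporters of metals differed by member while their sum was even. Iron, copper and phosphate uptake summed to 1151 ppm in T. fuciformis and 1094 ppm in A. stygium in the mycelia grown alone, and to 1746 ppm in T. fuciformis and 2324 ppm in A. stygium after interaction. The Copper transport protein ctr4, a high-affinity copper importer of the plasma membrane, had 649.8 ppm in T. fuciformis and 26.8 ppm in A. stygium alone, and 1062 ppm in T. fuciformis and 329 ppm in A. stygium after interaction. Copper transport protein CTR2, the vacuolar copper exporter of yeast, had 0.515 ppm in T. fuciformis and 195 ppm in A. stygium alone, and 0.684 ppm in T. fuciformis and 491 ppm in A. stygium after interaction. Siderophore iron transporter 3 had 99.2 ppm in T. fuciformis and 0.172 ppm in A. stygium alone.

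Proteases were higher in A. stygium in sum, and many of their names were found in 1 fungus. They summed to 6814 ppm in T. fuciformis and 10461 ppm in A. stygium, and 15 of 95 members were at least 4-fold higher in T. fuciformis and 55 in A. stygium (20.2% and 37.1% over all descriptions), with a median log2 ratio of -4.48. Serine-type carboxypeptidase F had 1326 ppm in T. fuciformis and 0.572 ppm in A. stygium, and Subtilisin-like proteinase Spm1 had 0.218 ppm in T. fuciformis and 918 ppm in A. stygium. By orthology number the carboxypeptidase had 1498 ppm in T. fuciformis and 579.7 ppm in A. stygium, and the subtilisin had 606 ppm in T. fuciformis and 939 ppm in A. stygium, both within 4-fold.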
